A study of Mus musculus with 18 samples.

Results

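The experiment lowered Smim30, a gene for a small integral membrane protein, with siRNA in IC-21 cells that were then stimulated with LPS, and its members are the 6 libraries whose titles name IC-21, out of 18 in the series. IC-21 is an established line derived from C57BL/6 mouse peritoneal macrophages transformed with SV40, and the labels give its strain as C57BL/6J. Control siRNA (siControl) was given to 3 cultures and Smim30 siRNA (siSMIM30) to 3, each for 24 h, and every culture then received LPS at 5 ng/ml for 6 h. No IC-21 library without LPS was analysed, so both groups show the stimulated state. A transient siRNA lowers a transcript without removing it, and the labels do not say whether the 3 libraries of a group came from separate transfections, so the p-values measure only how far these libraries scatter, and that scatter may be technical. A further 6 libraries, from LPS-treated peritoneal macrophages of wild-type (WT) and SMIM30-Mut (Mut) mice with 3 in each group, were used to set the knockdown beside the mutation.

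LPS, a component of the outer membrane of Gram-negative bacteria, binds Toll-like receptor 4 on macrophages. Signalling through MyD88, NF-kB and MAP kinases then switches on cytokine, chemokine and immediate early genes, and a separate branch through TRIF and interferon regulatory factors switches on the type I interferon programme. Feedback inhibitors such as IkB proteins, A20, tristetraprolin and the MAP kinase phosphatases are induced with the cytokines and limit their output.

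The coding sequence of Smim30 is shown because it is the gene the siRNA was directed against and because its transcript bears on a sequence pattern described further on. The gene lies on the minus strand of chromosome 6 at chr6:13867735-13871518 (GRCm38), its main transcript has 3 exons and 3177 bases, and the reading frame of 59 codons and a stop codon lies wholly in exon 3, at chr6:13870532-13870711. Start and stop codons are in capitals, and the sequence is that of the GENCODE M21 transcript.
Smim30 coding sequence: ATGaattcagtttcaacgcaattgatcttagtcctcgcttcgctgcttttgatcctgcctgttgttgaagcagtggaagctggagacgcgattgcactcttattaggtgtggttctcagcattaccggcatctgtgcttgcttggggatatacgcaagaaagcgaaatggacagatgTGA

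Smim30 checked the labels. Its level in CPM (the usual count scaled to library size, here with TMM factors) was 22.3, 19.98 and 21.7 in siControl replicates 1 to 3 and 8.93, 11.5 and 12.1 in the siSMIM30 replicates. The groups did not overlap and no siSMIM30 library reached zero. The log2 fold change was -0.97 ± 0.12 (SE), with an adjusted p of 6.17e-08 in edgeR's quasi-likelihood test, which is 0.51 of the control level. Of the 17 other members of a list of small integral membrane protein genes that could be tested, Tmem258 was the only other called member, at -0.29 ± 0.07 (adjusted p = 0.0121), and that call was lost without siControl replicate 2 (adjusted p = 0.179) or siSMIM30 replicate 2 (adjusted p = 0.104). Within 2 Mb of Smim30, 9 genes were tested and 1 was called, where 3.48% of all genes were: Tmem106b, a lysosomal membrane protein gene, at -0.26 ± 0.08 (adjusted p = 0.0405).

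Library totals ran from 6855245 to 11990126 assigned read pairs, and a count of 3, taken as the floor, was worth 0.25 to 0.438 CPM. Ribosomal RNA genes held 0.195 to 0.484% of counts. The first principal component separated the groups, with siControl replicate 1, the shallowest library, furthest out. Pairs of replicates varied beyond sampling of reads (chi-square of 1.73 to 2.88 for each gene). siControl replicate 2, the deepest library, stood apart in copies of mitochondrial sequence on chromosome 1, where the pseudogene Gm10925 had 134 CPM against 40.9 to 52.4 in the other 5 libraries. The 7SL RNA gene Rn7s2 had 1873, 2425 and 840.3 CPM in the siControl libraries and 709.5, 662 and 834.5 in the siSMIM30 libraries, and was not called (adjusted p = 0.352). These genes were picked after their values were seen, and their part in the results was not tested. All 14 macrophage markers were counted, with summed levels of 3960 to 4190 CPM in siControl and 3930 to 4190 CPM in siSMIM30 libraries. Gata6 and Timd4, which define resident large peritoneal macrophages, had no counts in any of the 6 libraries, nor had the T cell gene Cd3e or the neutrophil gene Ly6g, though other genes of their lists were counted. In siControl and siSMIM30 libraries the sums were 37.9 to 46.3 and 40 to 43.8 CPM for neutrophil markers, 5.69 to 7.09 and 4.54 to 5.25 CPM for T and NK cell markers, and 57 to 62.3 and 48.8 to 55.9 CPM for B cell markers. The T and NK and the B cell sums were lower in every siSMIM30 library, and their part in the results was not tested. Each of these lists had 1 gene high enough to test, Lck for T and NK cells and Cd22 for B cells. The other members had at most a few counts in a library. Neither Lck nor Cd22 was called (adjusted p = 0.445 and 0.159 in edgeR's quasi-likelihood test). Fibroblast and mesothelial markers summed to at most 0.597 CPM.

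The knockdown changed many genes by small amounts. Of 13576 genes tested, 472 passed an adjusted p of 0.05 (3.48%), 324 of them higher (2.39%) and 148 lower (1.09%) with siSMIM30. The median size of a called change was 0.21 on the log2 scale, and 17 called genes changed by 1.5-fold or more, 12 up and 5 down. With library totals alone in place of TMM the split was 269 higher and 226 lower of 495, so the excess of rises depends in part on the scaling. At least 2-fold changes were called for 5 genes, named here after their values were seen: Csf3, Tmem132a and the pseudogene Gm16581 among the rises, and Serpinc1, the antithrombin gene, and the pseudogene Gm17082 among the falls. The called genes were well expressed, with a median level of 154 CPM for rises and 102 CPM for falls against 24.7 CPM for genes not called. Their exons were longer too, with medians of 5254 and 5306 bases against 3749 bases.

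**Figure D1:**
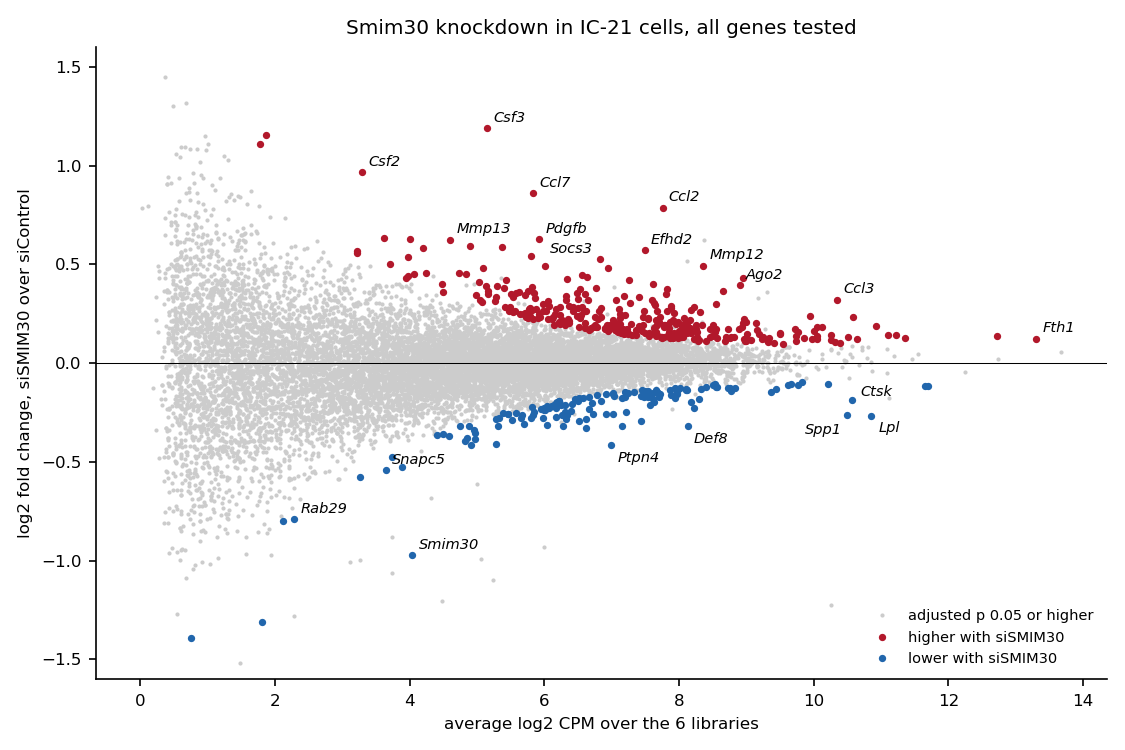
Log2 fold change of siSMIM30 over siControl (vertical axis) against the average log2 CPM over the 6 libraries (horizontal axis) for the genes tested, with called rises in red and called falls in blue; genes beyond 1.6 on either side lie outside the axis. Smim30 sits at -0.97, Csf3, Csf2, Ccl7 and Ccl2 lie at the top, and most called changes are small changes of abundant genes.

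Csf3, Csf2, Ccl7 and Ccl2 had the largest called rises among genes with an average log2 CPM of at least 2. Csf1, the macrophage colony-stimulating factor, rose by only 0.12 (adjusted p = 0.0162), a call lost in 6 of 17 other settings, among them without siControl replicate 2 (adjusted p = 0.236), siControl replicate 3 (0.084), siSMIM30 replicate 1 (0.119) and siSMIM30 replicate 2 (0.0547). Csf3, which encodes the granulocyte factor G-CSF, had 18.2, 20.3 and 26.8 CPM in the siControl libraries and 58.5, 48.8 and 41.7 CPM in the siSMIM30 libraries. Every knockdown library lay above every control, and the log2 fold change was 1.19 ± 0.16 (adjusted p = 0.00518), though the call was lost with replicate number as a block (adjusted p = 0.125) and without siSMIM30 replicate 2 (adjusted p = 0.0506). Csf2, which encodes GM-CSF, went from 6.66, 5.66 and 7.75 CPM to 14.6, 10.8 and 13.4 CPM, a log2 change of 0.97 ± 0.16 (adjusted p = 3.16e-05). Ccl2 and Ccl7 encode ligands of the receptor CCR2, which recruits monocytes. Ccl2 had 169.5, 158 and 151 CPM in controls and 284, 284 and 254 CPM with siSMIM30 (0.79 ± 0.04, adjusted p = 7.41e-18). Ccl7 had 41.7, 40.4 and 40.3 CPM in controls and 79.8, 73.3 and 68.1 CPM with siSMIM30 (0.86 ± 0.07, adjusted p = 7.84e-15). For both chemokines the lowest knockdown library lay well above the highest control.

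**Figure D2:**
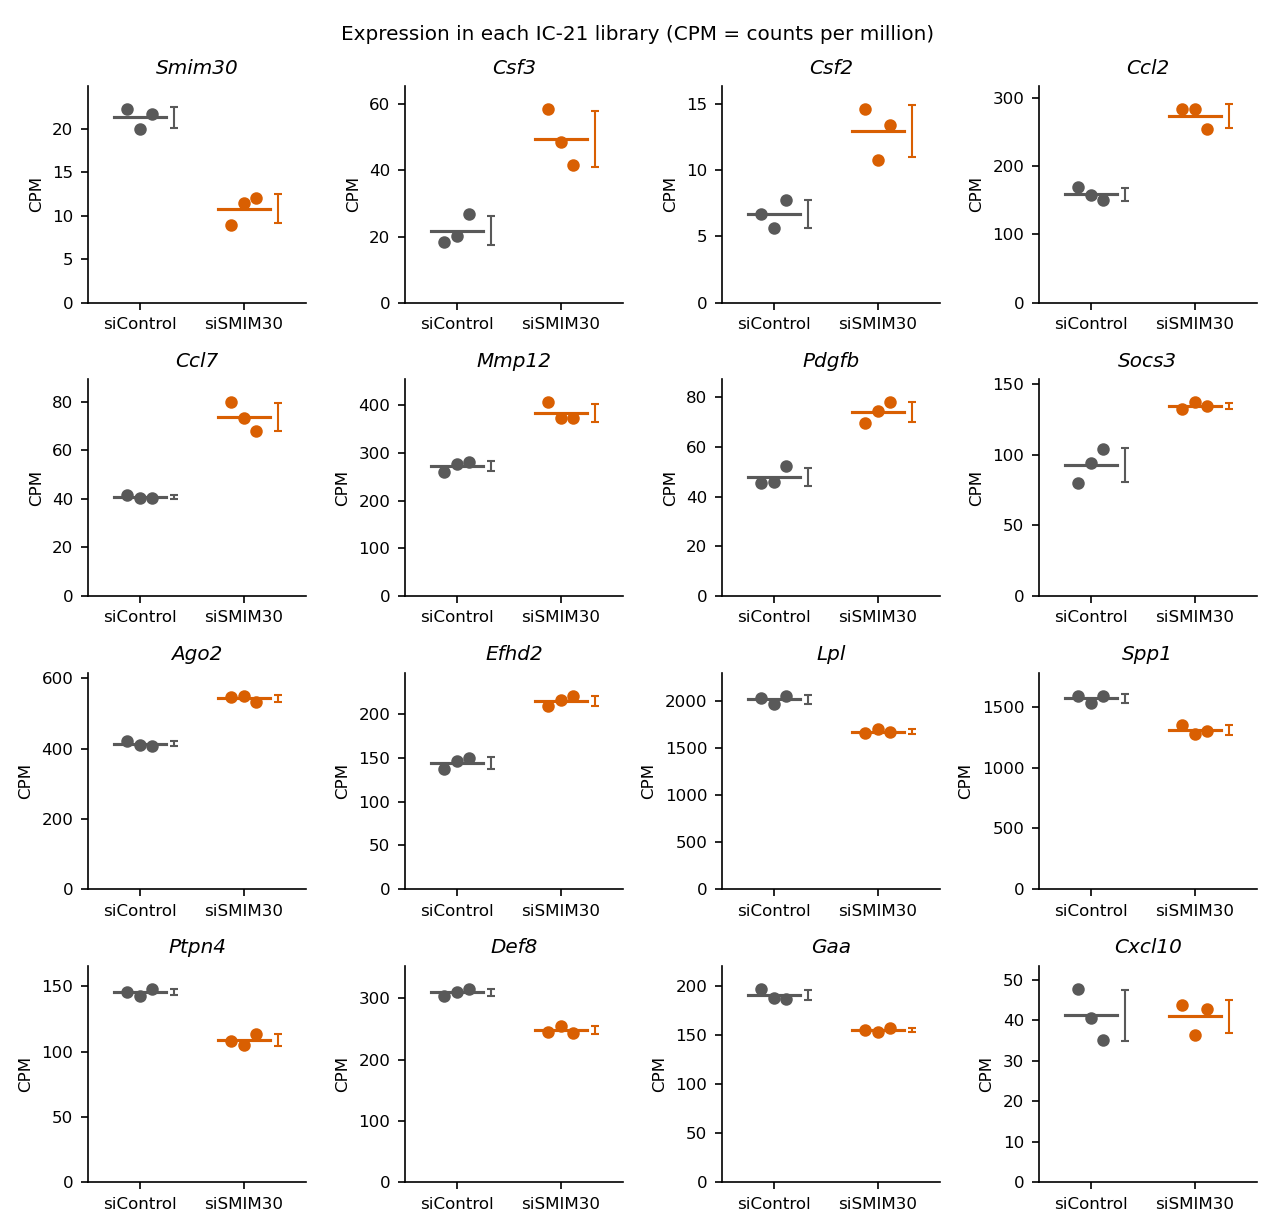
CPM in each of the 6 libraries for 16 genes (points, replicates 1 to 3 from left to right), with the group mean (line) and SD (bar, n = 3); each axis starts at 0. Smim30, Lpl, Spp1, Ptpn4, Def8 and Gaa were lower in every siSMIM30 library, Cxcl10 overlapped, and the other 9 genes were higher in every siSMIM30 library.

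Among 24 tested cytokine and chemokine genes that LPS induces, 10 rose, none fell and 14 did not pass, and the list had a median log2 change of 0.34 against -0.002 over all genes tested. The share that rose, 41.7%, stands beside 2.39% of all tested genes, and it was 9 to 11 of the members when each library was left out. Ccl3 and Ccl4, chemokines of the CC class, rose by 0.32 ± 0.03 (adjusted p = 8.32e-11) and 0.37 ± 0.03 (adjusted p = 1.41e-12). Ccl3 was among the most abundant cytokine transcripts, with 1136, 1178 and 1152 CPM in controls and 1537, 1399 and 1395 CPM with siSMIM30. Osm, a cytokine of the interleukin-6 family, rose by 0.36 ± 0.07 (adjusted p = 0.000561). Tnf rose less, from 573, 518 and 522 CPM to 638, 589 and 583 CPM (0.17 ± 0.04, adjusted p = 0.00307). The Tnf groups did not overlap, and the call was lost without siSMIM30 replicate 1 (adjusted p = 0.0547).

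The interleukin-1 genes and Il6 were higher in every knockdown library without passing the robust quasi-likelihood test. The groups did not overlap, in either direction, in 19.0% of all tested genes. Il1b had 219, 263 and 299.6 CPM in controls and 449.8, 406 and 352 CPM with siSMIM30, a log2 difference of 0.62 ± 0.16 (adjusted p = 0.193). Il1a differed by 0.33 ± 0.10 (adjusted p = 0.27), and Il6 by 0.39 ± 0.14 (adjusted p = 0.349), with 102, 119 and 119.6 CPM against 172, 128 and 148 CPM. Without the robust option of edgeR all 3 passed, as they did with limma-voom. Of 17 other settings Il1b was called in 3, Il6 in 4 and Il1a in 6, with adjusted p from 4.15e-07 to 0.46, from 0.000301 to 0.572 and from 2.49e-05 to 0.485. In these genes the replicates of a group spread widely, with siSMIM30 replicate 1 the highest in each. Their receptor antagonist gene Il1rn did rise, from 119.6, 133 and 139 CPM to 186, 172 and 168 CPM (0.42 ± 0.05, adjusted p = 7.93e-09), and so did Nlrp3, the inflammasome sensor, by 0.20 ± 0.04 (adjusted p = 0.00125).

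No gene on either interferon list was called as higher, where 2.39% of all tested genes were, so few would be called at that share. Cxcl10, a chemokine induced by interferon, had 47.8, 40.6 and 35.3 CPM in controls and 43.8, 36.4 and 42.7 CPM with siSMIM30, a difference of -0.001 ± 0.088. In the type I interferon response, with 28 genes tested, none rose and 1 fell, Parp14, with a median of -0.09 and 4 of 28 above zero. Parp14 changed by -0.18 ± 0.05 (adjusted p = 0.0484), a call lost in 9 of 17 other settings. Among the 10 interferon-inducible GTPases tested, none was called and the median was -0.13. Ifnb1 had 1, 0 and 0 counts in controls and 1, 0 and 1 counts with siSMIM30, and Il10 had no counts in any library, so a difference in either was not detectable at this depth. Nos2, the inducible nitric oxide synthase, had 3, 2 and 5 counts against 4, 11 and 1 counts and was too low to test.

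Components of TLR4 signalling and its NF-kB feedback genes were counted apart, beside 3.48% of all genes called, and the difference between the counts was not tested. Of the 20 TLR4 components (5% called) only Irak2, a kinase of the MyD88 complex, was called, at 0.32 ± 0.06 (adjusted p = 4.24e-05), from 74.5, 78.8 and 85.9 CPM to 106, 99.1 and 95.01 CPM. Among 26 NF-kB subunits and feedback genes 7 rose and none fell, with a median of 0.08. Nfkbiz, a co-regulator induced by NF-kB, rose by 0.22 ± 0.04 (adjusted p = 0.000374). Zc3h12a, the cytokine mRNA nuclease Regnase-1, rose by 0.23 ± 0.05 (adjusted p = 0.000665), and Tnfaip3, which encodes A20, by 0.16 ± 0.04 (adjusted p = 0.00388). The count of 7 was 4 without siControl replicate 2.

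Of 22 anti-inflammatory regulators 9 rose and none fell, with a median of 0.15, a share of 40.9% beside 2.39% of all genes. Socs3, an inhibitor of cytokine receptor signalling, had 80.3, 94.5 and 104 CPM in controls and 132, 137 and 134.5 CPM with siSMIM30 (0.52 ± 0.06, adjusted p = 9.53e-07). Acod1, which makes itaconate, was abundant and rose by 0.18 ± 0.03 (adjusted p = 5.32e-06), its 3 controls lying within 1036 to 1051 CPM and its 3 knockdown libraries within 1160.4 to 1205 CPM. Zfp36, which encodes the mRNA decay factor tristetraprolin, rose by 0.32 ± 0.06 (adjusted p = 0.000147). Dusp1, a phosphatase of p38 and JNK, rose by 0.39 ± 0.07 (adjusted p = 4.09e-05), from 50.4, 47.7 and 48.7 CPM to 64.7, 63.2 and 63.3 CPM. With Dusp8 and Dusp16 it made up the 3 of 15 MAP kinase phosphatase and Sprouty genes that rose. Dusp16 rose by 0.26 ± 0.05 (adjusted p = 0.000697) and Dusp8 by 0.58 ± 0.12 (adjusted p = 0.000816), the latter call being lost without siSMIM30 replicate 1 (adjusted p = 0.0591). Mapkapk2, the kinase downstream of p38, and Nras were the 2 called of 28 MAP kinase cascade and Src family genes (7.14%, beside 3.48% of all genes). The Nras call was lost in 5 of 17 other settings, among them without siControl replicate 2 (adjusted p = 0.235), siSMIM30 replicate 1 (adjusted p = 0.0986) and siSMIM30 replicate 2 (adjusted p = 0.131). Mapkapk2 rose by 0.22 ± 0.03 (adjusted p = 5.62e-07).

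All 21 tested immediate early genes had a log2 change of 0.001 or higher, with a median of 0.23. Of these 6 were called as higher, 28.6% beside 2.39% of all tested genes. Jun, a subunit of the AP-1 transcription factor, rose by 0.19 ± 0.04 (adjusted p = 0.000686), from 198, 209 and 209 CPM to 238, 227 and 239 CPM, and Junb by 0.30 ± 0.07 (adjusted p = 0.00325). The count of 6 was 2 without siControl replicate 2 and 3 without siSMIM30 replicate 3. Csrnp1, a nuclear protein gene induced with the early genes, was among the 12 largest rises, at 0.63 ± 0.12 (adjusted p = 0.000267).

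Matrix-degrading proteases were among the rises. Of 15 tested metalloproteinase, TIMP and plasminogen system genes 5 rose and none fell, with a median of 0.18. The share that rose was 33.3%, beside 2.39% of all tested genes. Mmp12, the macrophage elastase, had 260.4, 276 and 281 CPM in controls and 406, 374 and 373 CPM with siSMIM30 (0.49 ± 0.04, adjusted p = 8.08e-16). Mmp13, a collagenase, had 19.0, 19.4 and 18.7 CPM in controls and 28.1, 31.2 and 28.8 CPM with siSMIM30 (0.62 ± 0.10, adjusted p = 9.02e-06). In neither gene did a knockdown library come near the controls. Plaur, the urokinase receptor, rose by 0.34 ± 0.05 (adjusted p = 1.87e-07), and Adam17, the sheddase that releases TNF, by 0.17 ± 0.03 (adjusted p = 0.000267). Pdgfb, a growth factor for mesenchymal cells, went from 45.6, 46.0 and 52.2 CPM to 69.6, 74.6 and 77.9 CPM (0.63 ± 0.07, adjusted p = 2.40e-10). The receptors for complement fragments C5a and C3a, C5ar1 and C3ar1, rose by 0.31 ± 0.04 (adjusted p = 1.28e-06) and 0.36 ± 0.07 (adjusted p = 0.000679). They were the 2 called of 11 complement genes tested, 18.2% beside 3.48% of all genes called in either direction.

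More cytoskeletal genes rose than fell. Of 41 actin and small GTPase regulators 10 rose and 2 fell, with a median of 0.08. The share that rose was 24.4%, where 2.39% of all tested genes rose and 1.09% fell. Flna, the actin crosslinker filamin A, was abundant and rose by 0.23 ± 0.03 (adjusted p = 1.68e-08), from 1390.5, 1407 and 1444 CPM to 1635, 1718 and 1627 CPM. Coro1a rose by 0.25 ± 0.05 (adjusted p = 0.000245), Ezr by 0.26 ± 0.05 (adjusted p = 0.000159) and Actb, which encodes beta-actin, by 0.14 ± 0.02 (adjusted p = 0.000178). Tpm1, a tropomyosin, fell by 0.27 ± 0.06 (adjusted p = 0.00136). Efhd2, a calcium-binding protein that associates with actin, was outside the list and had the second smallest p of all rises, with 137, 147 and 149.9 CPM in controls and 209, 216 and 221 CPM with siSMIM30 (0.57 ± 0.04, adjusted p = 3.79e-16). Sdc4, a heparan sulphate proteoglycan of focal adhesions, rose by 0.48 ± 0.05 (adjusted p = 1.70e-11) and Lims1, an adaptor of the integrin-linked kinase, by 0.38 ± 0.04 (adjusted p = 7.67e-11). Among 19 integrin and adhesion genes 5 rose and 1 fell, 26.3% as higher beside 2.39% of all genes. Alcam rose by 0.17 ± 0.03 (adjusted p = 0.000248), Itgav, the alpha-V subunit, by 0.19 ± 0.04 (adjusted p = 0.0056), and Cd82, a tetraspanin, fell by 0.26 ± 0.05 (adjusted p = 0.000105). The 5 rises were 3 in each fit that left out a siControl library or siSMIM30 replicate 1, and 2 without siSMIM30 replicate 2.

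Of 28 tested genes of glycolysis and HIF-1 targets 8 rose, none fell and 20 did not pass, with a median of 0.11 and a range from -0.38 to 0.62. The share that rose was 28.6%, beside 2.39% of all genes. Bnip3, a mitophagy receptor and HIF-1 target, had 25.3, 24.1 and 21.9 CPM in controls and 35.9, 37.9 and 33.3 CPM with siSMIM30 (0.59 ± 0.09, adjusted p = 5.29e-06). The glycolytic enzyme genes Tpi1, Pgk1 and Ldha rose by 0.28 ± 0.04 (adjusted p = 6.95e-07), 0.20 ± 0.04 (adjusted p = 6.73e-05) and 0.20 ± 0.04 (adjusted p = 0.000857), and the glucose transporter gene Slc2a1 by 0.18 ± 0.04 (adjusted p = 0.00196). None of 37 oxidative phosphorylation subunits was called, with a median of -0.02, where 3.48% of all genes were called, so few would be called at that share. The difference between this list and that of glycolysis and HIF-1 targets was not tested. Of the proliferation genes 8 of 42 in DNA replication and S phase and 4 of 38 in G2/M were called as higher and none as lower. These shares, 19% and 10.5%, stand beside 2.39% of all genes. E2f1, a transcription factor of S phase entry, rose by 0.18 ± 0.04 (adjusted p = 0.00373), from 165, 158 and 157 CPM to 182, 176 and 186 CPM. The S phase count was 4 without siSMIM30 replicate 1, and the G2/M count was 2 without siControl replicate 2 and 1 without siSMIM30 replicate 2. With all 18 libraries in the fit each count was 1. Whether more cells were cycling or each cell held more of these transcripts cannot be told apart in bulk RNA.

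The falls included secreted macrophage products and lysosomal genes. Lpl, which encodes lipoprotein lipase, had 2024, 1959 and 2051 CPM in controls and 1650.3, 1699 and 1663 CPM with siSMIM30 (-0.27 ± 0.03, adjusted p = 7.37e-11). Spp1, which encodes osteopontin, had 1593, 1529.5 and 1593 CPM in controls and 1352, 1276 and 1300.4 CPM with siSMIM30 (-0.26 ± 0.03, adjusted p = 4.76e-10). The replicates of both genes lay within a few percent of each other and the groups were well apart. Ptpn4, a protein tyrosine phosphatase, had 145, 143 and 148 CPM in controls and 108, 105 and 114 CPM with siSMIM30 (-0.42 ± 0.05, adjusted p = 7.65e-10). Def8, which takes part in lysosome positioning, fell by 0.32 ± 0.04 (adjusted p = 9.67e-10). Ssr2, a subunit of the translocon-associated complex, fell by 0.32 ± 0.05 (adjusted p = 8.09e-07), and Ireb2, an iron-regulatory RNA-binding protein, by 0.23 ± 0.03 (adjusted p = 3.38e-06). Card19 fell by 0.41 ± 0.08 (adjusted p = 0.000498). Among genes of low level, Rab29, a small GTPase gene, changed by -0.79 ± 0.23 (adjusted p = 0.0359), a call lost without siControl replicate 2, siSMIM30 replicate 1 or siSMIM30 replicate 2 (adjusted p = 0.403, 0.11 and 0.217).

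Of 41 lysosomal and proton pump genes 9 fell and 4 rose, with a median of -0.05, which is 31.7% called beside 3.48% of all genes. Gaa, the acid alpha-glucosidase that degrades glycogen, fell from 197, 188 and 187 CPM to 156, 153.5 and 157.5 CPM (-0.29 ± 0.04, adjusted p = 6.48e-07). Ctsk, the collagen-degrading protease cathepsin K, fell by 0.19 ± 0.03 (adjusted p = 3.71e-06), and Psap, the precursor of the saposins, by 0.12 ± 0.03 (adjusted p = 0.00109), at 3443 to 3521 CPM in controls and 3180.4 to 3223 CPM with siSMIM30. Gusb, a glucuronidase, and Mitf, a transcription factor of lysosomal genes, went the other way, by 0.19 ± 0.04 (adjusted p = 0.000178) and 0.22 ± 0.05 (adjusted p = 0.00125). The 9 falls were 4 without siControl replicate 3 and 4 without siSMIM30 replicate 3, and the 4 rises were 2 without siControl replicate 2 and 2 without siSMIM30 replicate 2. Of 27 autophagy genes 3 fell and none rose, with a median of -0.07. Gabarapl1, a member of the ATG8 family on autophagosomes, fell by 0.29 ± 0.06 (adjusted p = 0.000498), from 83.4, 91.0 and 87.3 CPM to 69.6, 72.2 and 74.0 CPM. Without siSMIM30 replicate 1 the autophagy count was 1.

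Several programmes held no called gene. None of 32 unfolded protein response genes, 44 ribosomal protein genes or 26 cholesterol synthesis genes passed, with medians of -0.003, -0.03 and -0.06. Over all tested genes 3.48% passed in either direction, so few members of each list would be called at that share. Hspa5, the endoplasmic reticulum chaperone BiP, had 1343, 1314.5 and 1296.5 CPM in controls and 1400.0, 1353 and 1409 CPM with siSMIM30 (0.07 ± 0.03, adjusted p = 0.152). Among 16 Argonaute and microRNA processing genes Ago2, which encodes the Argonaute that cleaves siRNA targets, was the leading rise, with 422, 411 and 408 CPM in controls and 546, 551 and 532 CPM with siSMIM30 (0.39 ± 0.03, adjusted p = 1.00e-14). Its partner in silencing Tnrc6b fell by 0.28 ± 0.05 (adjusted p = 0.00019).

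**Figure D3:**
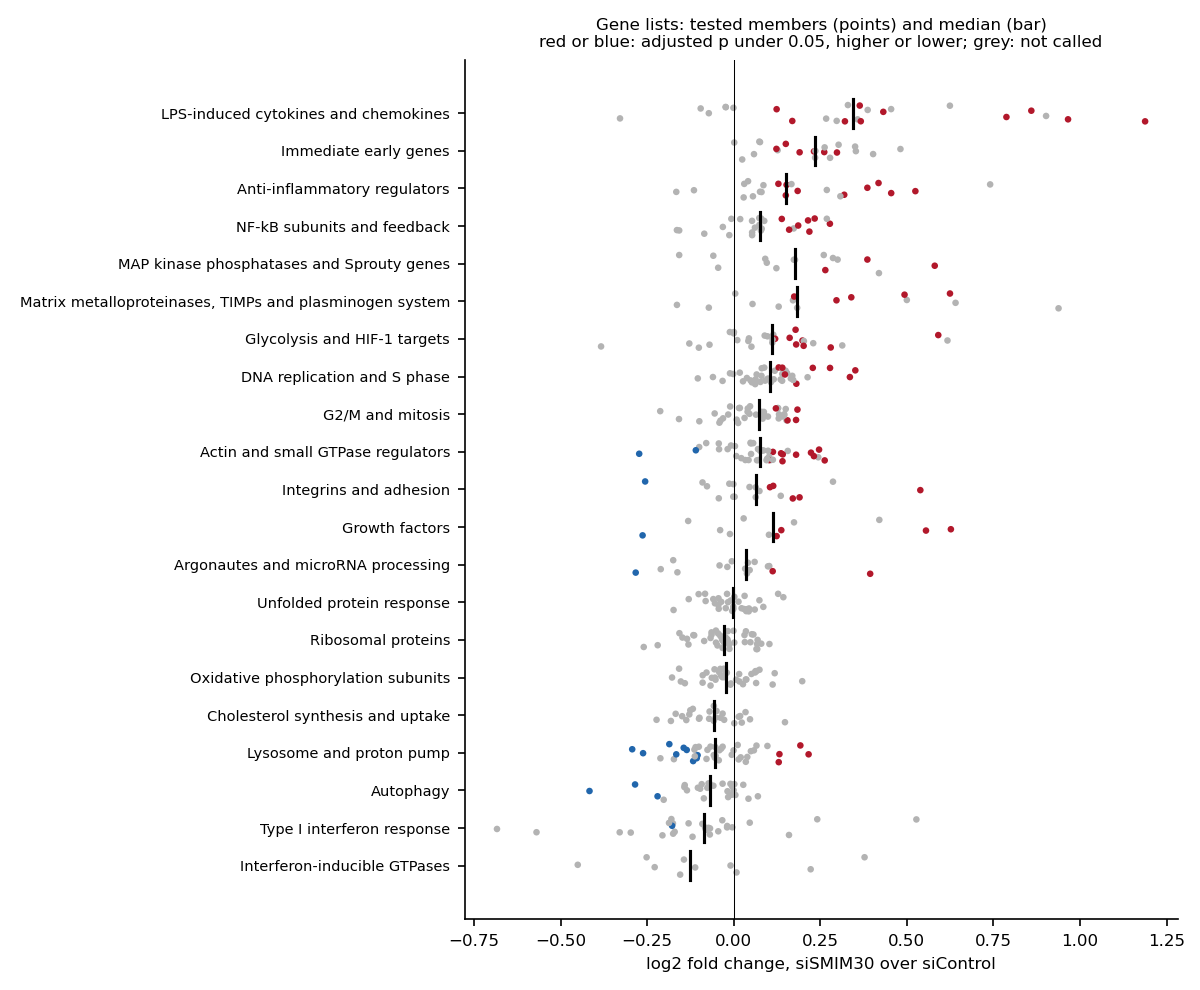
Log2 fold change of siSMIM30 over siControl for each tested member (points) of 21 gene lists, with the list's median (black bar); red and blue points passed an adjusted p of 0.05 as higher and lower, grey points did not, and the vertical scatter within a row has no meaning. The cytokine list has the highest median (0.34) and the list of interferon-inducible GTPases the lowest (-0.13).

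An siRNA, like a microRNA, can lower transcripts whose 3′ UTR pairs with bases 2 to 8 of either of its strands, and this holds for a control siRNA as well. The siRNA sequences are not given in the sources used here. After the results had been seen, every heptamer found in the longest annotated 3′ UTR of at least 500 of 9037 well-expressed genes (average log2 CPM of 3 or higher, 10498 heptamers, sense strand only) was ranked by the difference in mean log2 fold change between genes with and without it, adjusted for UTR length. The 5 heptamers at the ends of that order are named here as a description with no test.
Highest of 10498: GAATATA
Lowest: GAGAACA
The second lowest: GAGGGTA
The third lowest: AGAGGGT
The fourth lowest: TGAGAAC

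The highest heptamer, GAATATA, was present in 959 of the 9037 genes and had an adjusted difference of 0.0369. It was 0.0342, 0.0372 and 0.0388 in siSMIM30 replicates 1 to 3 and 0.0011, 0.0027 and -0.0038 in the siControl replicates, each against the siControl mean. The 4 lowest had differences of -0.0222, -0.0205, -0.0201 and -0.0183, in 1214, 621, 979 and 1198 genes. GAGAACA and TGAGAAC overlap by 6 bases of an octamer, as do GAGGGTA and AGAGGGT. For GAGAACA the siSMIM30 libraries gave -0.0224, -0.0226 and -0.0215 and the siControl libraries 0.0041, -0.0024 and -0.0017. The 3 knockdown libraries had like values for both of these heptamers, by amounts that are small beside the change of a single called gene. The heptamers were chosen from the fold changes of these same libraries, so that choice sets the size and direction of the values. Their likeness is a description and not a replication.

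Because the heptamers were chosen from these fold changes, their shares among called genes are a description that the choice itself sets. GAATATA was present in 26.9% of 316 genes that rose and had an annotated 3′ UTR, in 7.64% of 144 that fell and in 10.2% of 10555 tested. At least 1 of the 4 lowest heptamers was present in 54.2% of the genes that fell, 25.6% of those that rose and 29.3% of all tested. The 3′ UTRs of called genes were longer than usual, with medians of 1532.5 bases for rises and 1466 bases for falls against 1164 bases. Of the rises 58.2%, and of the falls 45.1%, held none of the 5 heptamers, beside 65.4% of the 10555 tested. Of the 10 called cytokine and chemokine genes none held GAATATA, and Csf3, Csf2, Ccl2, Ccl3, Ccl4 and Tnf held none of the 5. Mmp12, Pdgfb, Il1rn, Socs3 and Flna held none either, nor did Spp1, Gaa or Ctsk among the falls. By contrast GAATATA was present in Efhd2, Ago2, Sdc4, Lims1, Irak2, Acod1 and Mapkapk2, and in 4 of the 5 integrin and adhesion genes that rose. The fall heptamers were present in Ptpn4, Lpl, Def8, Ssr2, Ireb2, Card19, Tpm1 and Tnrc6b. Ago2, Sdc4 and Lims1 held heptamers of both kinds, as did Alcam and Itgav among the integrin and adhesion genes.

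**Figure D4:**
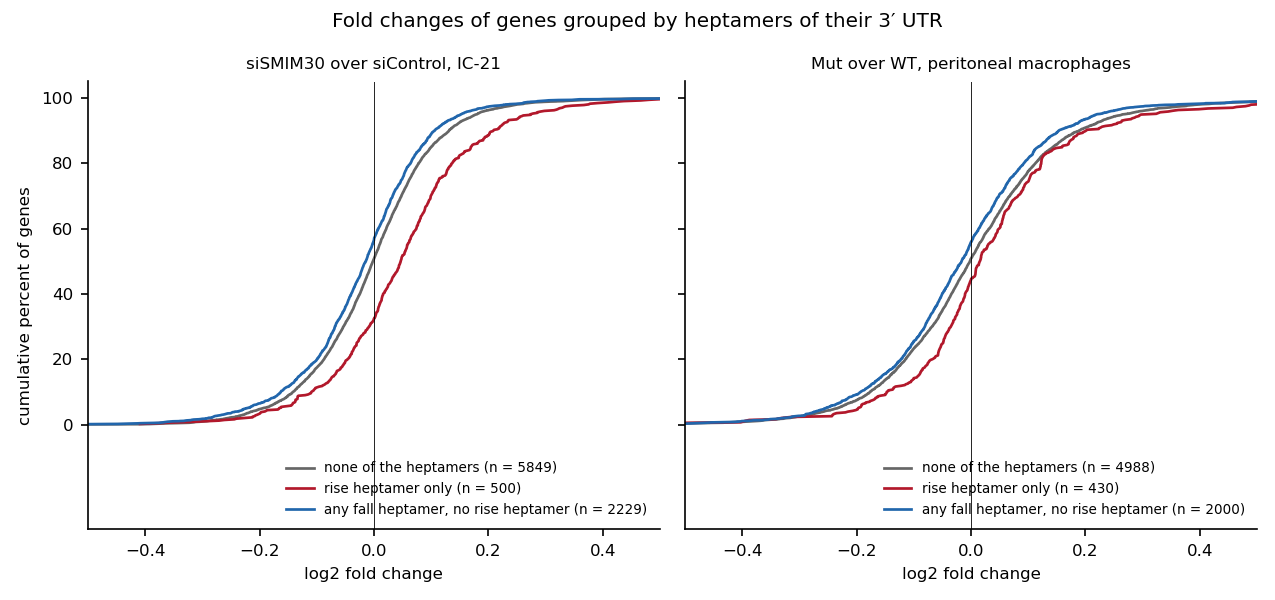
Cumulative percent of genes (vertical axis) by log2 fold change (horizontal axis) for genes whose 3′ UTR holds GAATATA and none of the 4 lowest heptamers (red), any of those 4 without GAATATA (blue) or none of the 5 (grey), in the knockdown (left) and in Mut over WT macrophages (right). In the knockdown the red curve lies to the right, with a median of 0.05 against -0.002 for the grey curve, and the blue curve lies to its left, at -0.01. In the mutant, without siRNA, the medians have the same order, at 0.0144, -0.0047 and -0.0171. These are medians over genes of the left panel that were also tested in the mutant. The right panel draws genes by their level in the Mut and WT libraries.

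Of these heptamers, AGAGGGT and the reverse complement of TGAGAAC lie 3 bases apart in the 3′ UTR of Smim30, in exon 3 at chr6:13870422-13870438 on the minus strand (GRCm38). A search of the Smim30 transcript for a reverse complement followed closely by a sense match found the stretch. The stretch is shown because it holds these heptamers within the silenced gene, with both matches in capitals.
Smim30 3′ UTR stretch: GTTCTCAgcaAGAGGGT
The first run of capitals is the reverse complement of TGAGAAC and the second is AGAGGGT itself. The Smim30 transcript holds 8 matches to the 4 lowest heptamers on either strand, overlapping ones counted apart, all in exon 3. The reverse complement of TGAGAAC makes up 3 of them, including 1 in the coding sequence printed above, and AGAGGGT and GAGAACA each occur once in the sense direction. Matches on either strand were not counted in other transcripts, so whether this number is unusual was not tested. Of 1738 mature mouse microRNAs in RefSeq, 0 had bases 2 to 8 complementary to the highest heptamer and 0 to either of the lowest pair. A single one, miR-7031-3p, had them complementary to AGAGGGT, and another, miR-3067-5p, to TGAGAAC. The stretch holds TGAGAAC only as its reverse complement. The part of siRNA pairing in the rises and falls was not tested. In Mut against WT macrophages, where no siRNA was used, GAATATA had an adjusted difference of 0.0242, 172nd highest of 10306 heptamers. The 4 lowest, in the order listed above, had differences of -0.0077, -0.0241, -0.0105 and -0.0048 there. They ranked 2470, 166, 1789 and 3229 from the bottom.

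The mutation in peritoneal macrophages was set beside the knockdown gene by gene. The groups share no library, but a line and primary cells, and an siRNA and a germline mutation, differ together here and cannot be told apart. Smim30 itself had a log2 difference of 0.01 in Mut against WT (adjusted p = 0.966). Of the 472 genes called in the knockdown 459 were tested in Mut against WT, where 788 of 12500 genes were called (6.30%), and 96 of the 472 were called there too. That is 20.3% of the knockdown calls and 12.2% of the mutation calls, 75 in the same direction and 21 in the opposite one. Of the rises 65 were called in the same direction and 14 in the opposite, and of the falls 10 and 7, where 3.68% of genes tested in Mut against WT were called as higher and 2.62% as lower. Pdgfb (0.63 and 0.77), Mmp13 (0.62 and 0.59), Mmp12 (0.49 and 0.41) and Socs3 (0.52 and 0.57) were called as higher in both, in the order knockdown and mutation. Csf2 was also called in both, at 0.97 and 1.89. Ccl2, at 0.79 in the knockdown, had 0.78 in Mut against WT without passing there (adjusted p = 0.284), and Gaa fell in both, by 0.29 and 0.24.

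The difference between the effects (knockdown minus mutation) was tested in a single fit of the 12 libraries. Of 14804 genes 372 were called (2.51%), 187 with a higher and 185 with a lower value in the knockdown, and 109 of the 472 knockdown calls were among them. Ago2 moved in opposite directions, with 0.39 in the knockdown and -0.39 in the mutant, a difference of 0.78 ± 0.06 (adjusted p = 8.67e-13). Spp1 and Lpl, which fell in the knockdown by 0.26 and 0.27, were higher in the mutant by 0.70 and 0.49, with differences of -0.96 ± 0.07 (adjusted p = 1.03e-13) and -0.76 ± 0.07 (adjusted p = 1.24e-11). Cxcl10 had -0.001 in the knockdown and 0.94 in the mutant (adjusted p of the difference = 0.0241). For Csf3, Il1b and Il6 the difference did not pass (adjusted p = 0.144, 0.154 and 0.154).

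**Figure D5:**
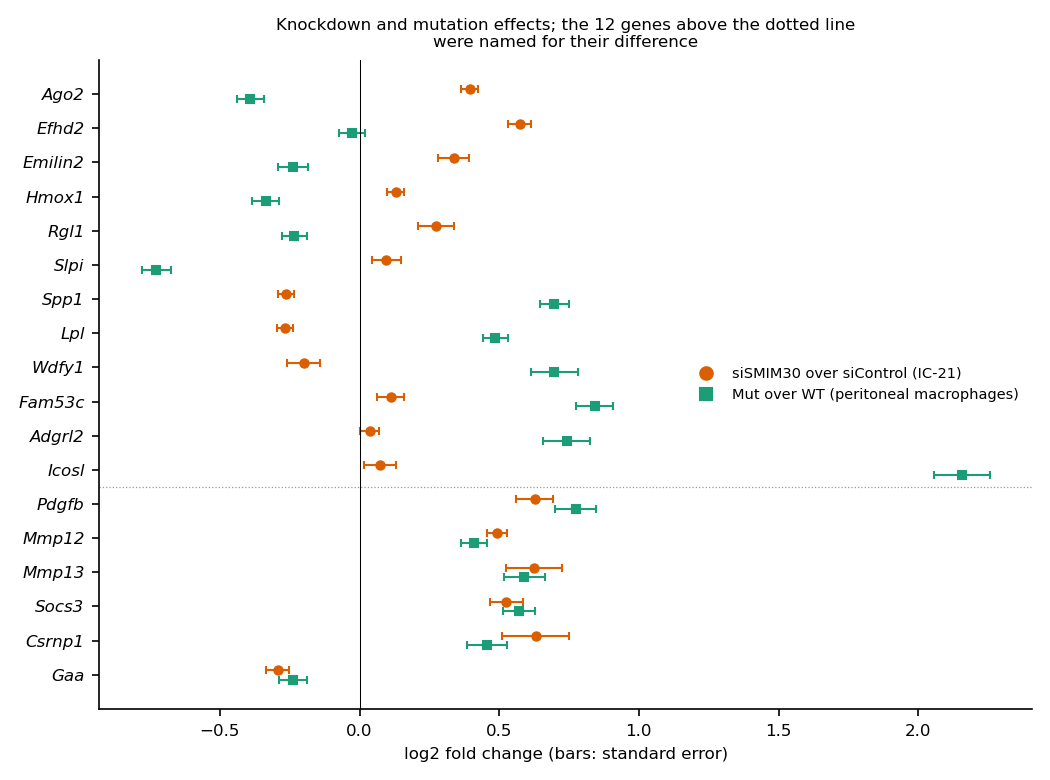
Log2 fold change with its standard error for siSMIM30 over siControl in IC-21 cells (orange circles) and for Mut over WT in peritoneal macrophages (green squares), for 18 genes. The 12 genes above the dotted line were named for their tested difference, which is widest for Icosl (0.07 and 2.16); Pdgfb, Mmp12, Mmp13, Socs3, Csrnp1 and Gaa below it moved the same way in both.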

How the data were processed

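Total RNA was sequenced from strand-specific libraries, per the labels' protocols. The authors used fastp, FastQC, HISAT2 and featureCounts, per the submitters' processing notes, and deposited raw counts, in which each exonic read pair of a gene counts once (featureCounts 2.0.3, reversely stranded, GENCODE M25), per the file headers. Symbols came from GENCODE M21 (GRCm38), matched for 55141 of 55401 identifiers; Smim30 is listed there as 2610001J05Rik.

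The 6 IC-21 libraries were fitted alone with edgeR 4.0.16 in R 4.3.3: filterByExpr, TMM scaling, robust quasi-likelihood F test and Benjamini-Hochberg adjustment over all genes at 0.05. The knockdown minus mutation difference came from a fit of 12 libraries. The SE is the log2 fold change over the square root of F. Scripts were tested on simulated data. Named genes were Smim30 and 7 cytokine or effector genes, the 12 largest changes and 8 smallest p-values in each direction (average log2 CPM of at least 2, groups not overlapping), up to 6 called members of each list and direction, and 6 genes per direction of the difference. The members, lists and rule were chosen with earlier results of these data known. No exact permutation test was used, since 3 against 3 cannot give less than 0.1. Alternatives were other scalings, filters, tools (DESeq2 1.42.0, limma 3.58.1), a block, offsets and left-out libraries. Same-numbered libraries did not deviate together (r = 0.04, -0.017 and -0.025), so the numbers were not taken as pairs.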

Additional observations from a re-analysis of the deposited data

Results flagged for a closer look

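The difference between the knockdown and mutation effects was called for 372 genes, and 12 of them, the 6 with the smallest p in each direction under the naming rule, are given with their log2 differences, knockdown minus mutation. Higher in the knockdown were Slpi, a protease inhibitor (0.82, adjusted p = 5.63e-11, with 0.10 in the knockdown and -0.73 in the mutant), Ago2 (0.78), Efhd2 (0.60), Emilin2, an extracellular matrix glycoprotein gene (0.57), Rgl1, a Ral exchange factor (0.51) and Hmox1, the heme oxygenase (0.46). Slpi was not called in the knockdown itself (adjusted p = 0.393 in edgeR's quasi-likelihood test). Emilin2 and Rgl1 rose in the knockdown by 0.34 and 0.28 and were lower in the mutant, by -0.24 and -0.23. Rgl1's rise in the knockdown was lost without siControl replicate 2 (adjusted p = 0.086).

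Lower in the knockdown were Icosl, the ICOS ligand (-2.09, adjusted p = 2.55e-19), Spp1 (-0.96), Wdfy1, an endosomal adaptor (-0.90), Lpl (-0.76), Fam53c (-0.74) and Adgrl2, an adhesion receptor (-0.71). Icosl, Fam53c and Adgrl2 had log2 changes of 0.07, 0.11 and 0.04 in the knockdown, none of them called, against 2.16, 0.84 and 0.74 in the mutant. Wdfy1 had -0.20 in the knockdown and 0.70 in the mutant, and its knockdown call was lost in 8 of 17 other settings. Cell source and kind of perturbation differ together between the experiments.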

How the results depend on the processing

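The count of 472 called genes was 291 with DESeq2 (220 higher, 71 lower), which gave no adjusted p for 6054 genes, and 263 with all 18 libraries in the fit (201 higher, 62 lower). With each library left out in turn it ran from 309, without siControl replicate 2, to 422, without siControl replicate 1. In the other settings it was within 1.5 times of 472. With replicate number as a block (replicate block) it was 546 (359 higher, 187 lower), and the difference between effects was called for 410 genes. The Smim30 change lay between -1.052 and -0.849 when a library was left out, and its adjusted p was at most 1.73e-05 where one was given; DESeq2 gave none (log2 change of -0.976, unadjusted p = 1.31e-09). The 372 genes of the difference ran from 267, without siControl replicate 2, to 571, without Mut replicate 3, with a library left out.

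Of 148 named genes called in the knockdown 75 kept their call in each of the 17 other settings that gave an adjusted p, and no named gene reversed while called. Of the counts of called members by list and direction, 1626 were within 1.5 times and 210 were not, most of them counts of few genes. Depth limits genes under 0.25 to 0.438 CPM in a library.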

Other observations

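Of 25 chemokine and cytokine receptor genes 3 rose, none fell and 22 did not pass in the knockdown, 12% beside 2.39% of all tested genes. Tnfrsf1b, the second TNF receptor, had 860.1, 927 and 929 CPM in controls and 1105, 1056 and 1049 CPM with siSMIM30 (0.24 ± 0.03, adjusted p = 6.70e-08 in edgeR's quasi-likelihood test), and Il4ra, the receptor chain for interleukin-4, rose by 0.35 ± 0.05 (adjusted p = 4.56e-06). Ftl1, the ferritin light chain, rose by 0.13 ± 0.02 (adjusted p = 0.00051), from 2526, 2520.2 and 2507 CPM to 2774, 2723 and 2753 CPM. It was 1 of 4 NRF2-linked genes called as higher of 32 (12.5%), with a list median of 0.01. Slc7a5, the large neutral amino acid transporter, rose by 0.26 ± 0.04 (adjusted p = 2.45e-05).

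Of 26 apoptosis regulators 2 rose, Mcl1 and Bcl2l1, and 24 did not pass, 7.69% beside 2.39% of all genes, with a median of -0.001. Bcl2l1 rose by 0.215, a call lost in 4 of 17 other settings. Mcl1, an inhibitor of apoptosis, rose by 0.18 ± 0.03 (adjusted p = 9.77e-05), and Cdkn1a, which encodes the cell cycle inhibitor p21, by 0.26 ± 0.03 (adjusted p = 9.02e-08), from 285, 294 and 288 CPM to 349, 349.9 and 341 CPM. Cdkn1a was the only called member of 23 p53 targets (4.35%, beside 3.48% of all genes), and its call was lost with all 18 libraries in the fit (adjusted p = 0.096). Stab1, a scavenger receptor gene, rose by 0.45 ± 0.09 (adjusted p = 0.000857), and Pilra, an inhibitory receptor, by 0.59 ± 0.09 (adjusted p = 3.47e-06). Ptgs1, the constitutive cyclooxygenase, rose by 0.31 ± 0.06 (adjusted p = 0.000679), while Ptgs2, the inducible enzyme, had at most 1 count in a library.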
